A study of Bos taurus with 6 samples.

Results

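The insulin-like growth factor (IGF) system was examined in the RNA sequencing of bovine preadipocytes through 10 genes, namely the ligands IGF1 and IGF2, the receptors IGF1R and IGF2R, and the binding proteins IGFBP2, IGFBP3, IGFBP4, IGFBP5, IGFBP6 and IGFBP7. The members were taken by symbol, and all 10 were found among the 23475 genes listed. The cells were isolated from subcutaneous fat of calves, cultured in high-glucose medium with fetal bovine serum, and collected 48 h after transfection. The agomir group (3 libraries) received the bta-miR-484 agomir, a modified RNA duplex that acts in place of this miRNA, and the agomir NC group (3 libraries), the controls, received the negative control agomir. Both groups were therefore transfected cells, and no untransfected library was part of the comparison. The sources do not say if the 3 libraries of a group stand for separate calves, so the SD and the p-values measure the spread between these samples, which may be technical.

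IGF1 and IGF2 are small secreted peptides related to insulin that promote growth, survival and differentiation of many cells, preadipocytes included. Both signal through IGF1R, a receptor tyrosine kinase, while IGF2R, which is also the cation-independent mannose 6-phosphate receptor, takes IGF2 into the cell for degradation and carries newly made enzymes to the lysosome. The secreted binding proteins hold the ligands outside the cell and either keep them from the receptor or deliver them to it, and IGFBP7 is a more distant relative that binds the ligands only weakly. In cultures of adipose precursor cells, the balance of ligand, receptor and binding protein is known to set how strongly the cells respond to IGF.

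The preadipocytes expressed the binding proteins and receptors of the system and hardly any ligand. IGFBP5, IGFBP4 and IGFBP7 were lower in all 3 agomir libraries than in all 3 agomir NC libraries, by a log2 fold change of -0.31, -0.18 and -0.14, respectively. IGFBP6, the most abundant member, also lay lower without overlap, but by a difference within the error of the test. IGFBP3, IGFBP2, IGF1R and IGF2R showed no difference larger than the spread between replicates. None of the members passed an adjusted p of 0.05.

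FPKM counts fragments per length of transcript and per mapped fragments of the library, which puts levels of different genes on a common scale. Sequencing depth is unknown, and library sums of FPKM ran from 365977 to 379361, the latter in agomir NC replicate 3. The label calls the cells adipocytes, and their markers were those of mesenchymal precursor cells. COL1A1, a collagen chain and the most abundant gene of the 12 preadipocyte and mesenchymal markers, had a mean of 5979 FPKM over the 6 libraries, and PDGFRA, a receptor of adipose precursors, lay between 162 and 172 FPKM. DLK1 was listed at 0 in all libraries, and CD34 had at most 0.783 FPKM. Of the mature adipocyte markers, ADIPOQ, which encodes adiponectin, had at most 0.197 FPKM, and LPL, the most abundant of the 8, had a mean of 3.73 FPKM. On the endothelial list, PECAM1, CDH5 and KDR were below a mean of 0.5 FPKM, while TEK was at 0.585 FPKM and VWF at 3.39 FPKM. On the immune list, PTPRC, CSF1R and AIF1 were below that mean, while CD68 was at 0.906 FPKM and CD14 at 6.27 FPKM. All 4 skeletal muscle markers and all 4 epithelial markers were below it, with DES highest at 0.294 FPKM and EPCAM at 0.157 FPKM. The smooth muscle list was mixed, with TAGLN at a mean of 281 FPKM, ACTA2 at 207 FPKM, CNN1 at 14.99 FPKM and MYH11 at 0.359 FPKM. The level of an RNA in bulk samples does not tell fewer cells of a type from less RNA per cell.

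By level, the members fell into an order in which all neighbors except IGF2 and IGF1 had ranges over the 6 libraries that did not overlap. IGFBP6 was first, with a mean of 680.4 FPKM over the 6 libraries, and ranked 65 among all 23475 genes listed. IGFBP5 followed at 294 FPKM, IGFBP3 at 208 FPKM, IGFBP4 at 129 FPKM, IGF2R at 90.4 FPKM, IGFBP7 at 67.1 FPKM, IGF1R at 27.2 FPKM and IGFBP2 at 2.41 FPKM. The ligands IGF2 and IGF1 came last, at 0.0610 and 0.0125 FPKM. The separation held across groups, since the lowest library of IGFBP5 (252 FPKM, agomir) lay above the highest library of IGFBP3 (213 FPKM, agomir NC).

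**Figure D1:**
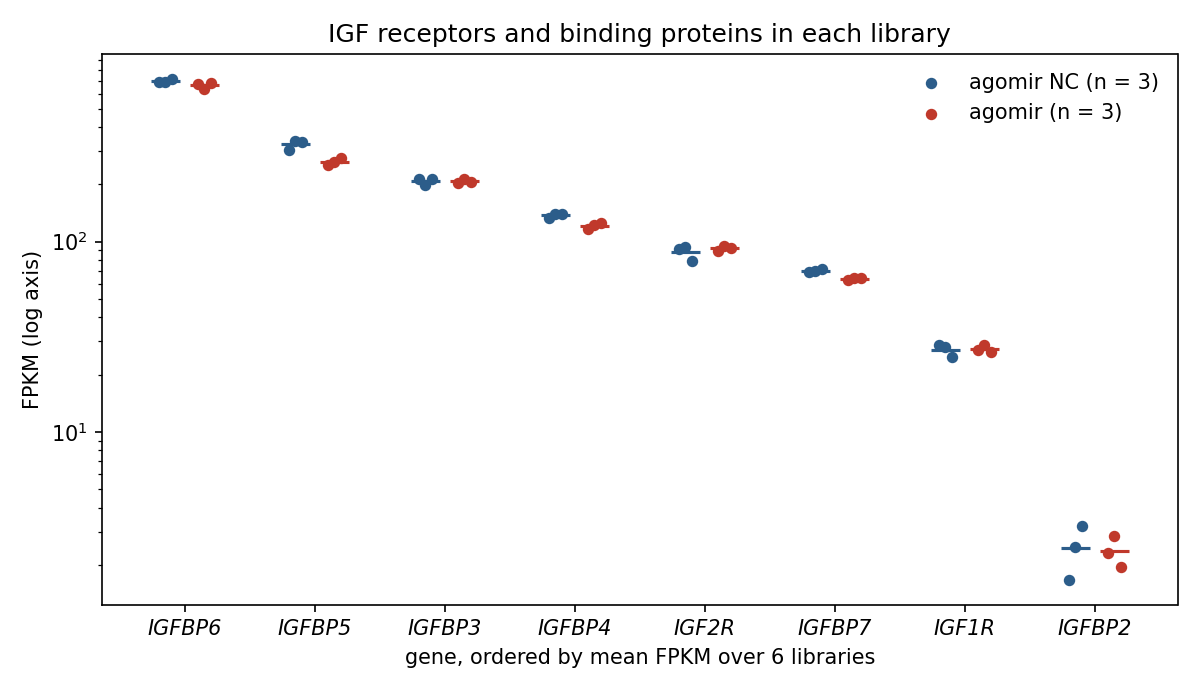
FPKM on a log axis of the 8 members averaging 0.5 FPKM or more, in the 3 agomir NC libraries (blue) and the 3 agomir libraries (red), with points for libraries and lines for group means. The agomir points of IGFBP5, IGFBP4, IGFBP7 and, by a narrow margin, IGFBP6 lie below all agomir NC points of the same gene, and IGFBP2 is the lowest of the 8.

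The ligands IGF2 and IGF1 ranked 15745 and 17385 of the 23475 genes by mean FPKM. IGF2 was listed at 0.126, 0.0180 and 0.0946 FPKM after the agomir, against 0.0735, 0.0120 and 0.0423 FPKM in the controls, with overlapping groups (exact two-sided permutation test, p = 0.4). IGF1 was listed at 0, 0.0128 and 0.0351 FPKM after the agomir, against 0.0129, 0 and 0.0140 FPKM in the controls. At these values no fold change is given, and neither gene reached the mean of 0.5 FPKM that a gene needed to enter the test. An exact permutation test of 3 libraries against 3 has 20 labelings and cannot go below p = 0.1.

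The other 8 members were among the 12422 genes tested with limma on log2(FPKM + 0.5), where 0.5 is a pseudocount and a fold change of low genes is understated. At an unadjusted p under 0.05, 3 of the 8 differed, all lower with the agomir, beside 10.9% of all genes tested in either direction and 4.31% lower. The groups did not overlap in 4 of the 8, all lower, beside 6.36% of all genes tested that were lower without overlap. After Benjamini-Hochberg adjustment over all genes tested, 0 of the 8 had an adjusted p under 0.05 in limma, beside 0.00805% of all genes (1 gene). The median log2 fold change of the 8 was -0.050, against 0.013 over all genes tested. The former was -0.12 without agomir NC replicate 1 and -0.092 without agomir replicate 2, and the latter turned to -0.00071 with median-ratio scaling and to -0.0028 when a trend with gene span was removed. Since genes at high FPKM were more often lower, the members were also read against their own range of level, a comparison chosen after the values were seen. Of the 1133 genes averaging 50 FPKM or more, 9.18% were lower at an unadjusted p under 0.05 and 13.2% were lower without overlap. The median log2 fold change of these 1133 genes was -0.016. IGF2R, IGFBP3, IGFBP4, IGFBP5, IGFBP6 and IGFBP7 belong to this range. The part of expression level in the result was not tested.

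IGF1R, which encodes the signaling receptor of both ligands, measured 27.1, 28.5 and 26.3 FPKM after the agomir, against 28.6, 27.8 and 24.8 FPKM in the controls. The groups overlapped entirely, and the log2 fold change was 0.013 (standard error 0.063, 95% interval -0.13 to 0.15), with its sign turning under median-ratio scaling (-0.0021). INSR, the related insulin receptor, was much lower than IGF1R in every library, and the ratio of IGF1R to INSR in FPKM ranged from 9.06 to 11.2.

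IGF2R measured 89.3, 95.2 and 93.0 FPKM after the agomir, against 92.0, 94.0 and 79.2 FPKM in the controls. Its log2 fold change of 0.068 (standard error 0.065, 95% interval -0.077 to 0.21) rested on agomir NC replicate 3, the lowest library, and was -0.0090 without it. The ratio of IGF2R to IGF1R lay between 3.19 and 3.54 in all libraries, so the receptor that clears IGF2 was the more abundant transcript in both groups.

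IGFBP5, a binding protein that also attaches to the extracellular matrix, had the smallest p among the members and ranked 15 of the 12422 genes by p. It measured 252, 261 and 274 FPKM after the agomir, against 303, 336 and 335 FPKM in the controls, so the controls were higher without exception. Group means were 263 ± 10.6 and 325 ± 18.8 FPKM (SD, n = 3 each), with a ratio of 0.808. On the log2 scale the difference was -0.31 (standard error 0.051, 95% interval -0.42 to -0.19), larger than the spread between replicates at limma's unadjusted p of 0.000168. The Benjamini-Hochberg adjusted p in limma was 0.122, and between 0.0987 and 0.446 in 16 alternative settings. No single library decided it, since omitting any of the 6 gave -0.36 to -0.28.

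IGFBP4, a soluble inhibitor of IGF action, measured 117, 122 and 125 FPKM after the agomir, against 132, 139.8 and 140.1 FPKM in the controls, again without overlap. Its means were 121 ± 4.33 and 137 ± 4.32 FPKM (SD, n = 3 each), with a ratio of 0.883. A log2 fold change of -0.18 was found (standard error 0.044, 95% interval -0.28 to -0.081), and limma's p was 0.00242 unadjusted and 0.259 adjusted. Omitting any library kept it between -0.21 and -0.15.

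IGFBP7, the distant relative, which is deposited in matrix and around vessels, measured 62.6, 64.2 and 64.4 FPKM after the agomir, against 68.9, 70.2 and 72.2 FPKM in the controls. Group means were 63.7 ± 1.03 and 70.4 ± 1.65 FPKM (SD, n = 3 each), with a ratio of 0.905. It varied least within groups of the 8 members, with a residual SD of 0.0288 on the log2 scale against a median of 0.0986 over all genes tested. The log2 fold change was -0.14 (standard error 0.041, 95% interval -0.23 to -0.051), and limma's p was 0.00635 unadjusted and 0.31 adjusted.

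IGFBP6, which binds IGF2 in preference to IGF1, measured 674, 634 and 678 FPKM after the agomir, against 689, 691 and 715 FPKM in the controls. The highest agomir library lay just under the lowest agomir NC library. The log2 fold change was -0.077 (standard error 0.041, 95% interval -0.17 to 0.015), and limma's unadjusted p was 0.0918. It was -0.046 without agomir replicate 2 and -0.030 with quantile normalization.

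IGFBP3, the main carrier of IGF in blood, measured 204, 212 and 206 FPKM after the agomir, against 213, 198 and 213 FPKM in the controls. The groups overlapped, and the log2 fold change was -0.0041 (standard error 0.042) with a 95% interval from -0.099 to 0.091, which does not hold the log2 fold change of IGFBP5, IGFBP4 or IGFBP7, although a difference between the genes was not tested. Its sign turned under quantile normalization (0.026) and with some libraries left out. IGFBP2, the only binding protein of the 6 at low level, measured 2.32, 2.83 and 1.95 FPKM after the agomir, against 1.68, 2.48 and 3.22 FPKM in the controls. The spread within its groups was wide, and the 95% interval of its log2 fold change ran from -0.45 to 0.40 around -0.024, an interval that also holds the -0.31 of IGFBP5, and its sign turned without agomir NC replicate 3 (0.16). IGFBP2 and IGFBP5 are next to each other among protein-coding genes on chromosome 2 in the RefSeq annotation of ARS-UCD2.0, and their mean FPKM were 2.41 and 294.

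**Figure D2:**
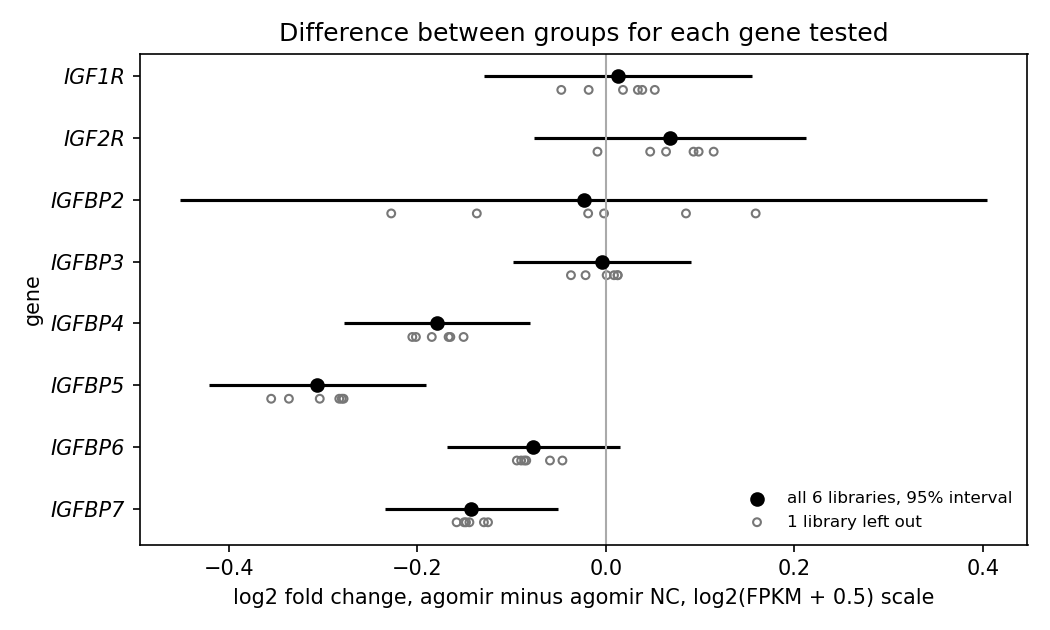
Log2 fold change of agomir minus agomir NC on the log2(FPKM + 0.5) scale for the 8 members tested, with filled points and lines for all 6 libraries and limma's 95% interval, and open points for fits with 1 library left out. The intervals of IGFBP4, IGFBP5 and IGFBP7 lie wholly below 0, and those of the other 5 hold 0.

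Summed over the 6 binding protein genes, the level was 1312, 1297 and 1349 FPKM in the agomir libraries and 1408, 1438 and 1479 FPKM in the agomir NC libraries, without overlap. IGFBP6 made up between 48.0% and 51.4% of this sum in any library. IGFBP5 made up 19.2%, 20.2% and 20.3% with the agomir and 21.5%, 23.4% and 22.7% with the agomir NC. A ratio of 2 genes within a library does not change when all values of the library are multiplied by 1 factor. Quantile normalization and removal of the span trend are not of this kind. The ratio of IGFBP5 to IGFBP3 was 1.24, 1.23 and 1.33 in the agomir libraries and 1.43, 1.70 and 1.58 in the agomir NC libraries, and that of IGFBP5 to IGFBP6 was 0.374, 0.412 and 0.403 against 0.440, 0.487 and 0.468. Within the libraries, IGFBP5 was thus lower relative to both of these binding proteins in every agomir library than in any agomir NC library.

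Across the 6 libraries, the genes with a symbol whose log2(FPKM + 0.5) followed IGFBP5 most closely were CDH11, a cadherin of mesenchymal cells (Pearson's r = 0.994), IGFBP4 (r = 0.992) and MYL12B, a myosin light chain (r = 0.991). They were the highest of 11251 genes compared over only 6 points, which share the 2 groups, so these values are a description. CDH11 measured 89.5, 89.5 and 91.3 FPKM after the agomir, against 94.8, 97.7 and 97.2 FPKM in the controls.

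Of the 10 precursor cell markers tested, 7 had a lower and 3 a higher value with the agomir, with a median of -0.068 on the log2 scale (-0.037 without agomir NC replicate 3 and -0.015 with quantile normalization). NT5E, which encodes a surface enzyme used to identify mesenchymal cells, measured 71.7, 70.6 and 77.5 FPKM after the agomir, against 83.1, 89.2 and 89.4 FPKM in the controls, and its log2 fold change was -0.25 (standard error 0.051, limma adjusted p = 0.209). DCN, which encodes the matrix proteoglycan decorin, differed by -0.12 on the log2 scale (standard error 0.043, limma adjusted p = 0.376). Its unadjusted p in limma was under 0.05 in 11 of 16 alternative settings. The difference was 0 under quantile normalization. That setting gives a gene of equal rank in every library the same value, so it cannot show a difference for such a gene. NT5E and DCN were the 2 of the 10 markers tested with an unadjusted p under 0.05, beside 4.31% of all genes tested that were lower and 9.18% of those averaging 50 FPKM or more, the range in which both lie. The count was 1 higher and 1 lower with no variance trend, 3 lower with median-ratio scaling, with the span trend removed or without agomir NC replicate 1, and 1 lower with quantile normalization or without agomir replicate 1 or 3. ENG, an accessory receptor of mesenchymal cells, was also lower without overlap, by -0.078 on the log2 scale at an unadjusted p of 0.0829 in limma. This made 3 of 10 lower without overlap, beside 6.36% of all genes tested. Of genes averaging 50 FPKM or more, the range in which all 3 lie, 13.2% were lower without overlap. The other lower markers were THY1 at -0.11, LUM at -0.074, VIM at -0.063 and PDGFRA at -0.013 on that scale. In the other direction, ZFP423, a transcription factor of preadipocytes listed as ZNF423, measured 5.67, 6.29 and 5.97 FPKM after the agomir, against 5.55, 5.32 and 5.12 FPKM in the controls. Its groups did not overlap, and the log2 fold change was 0.15 (standard error 0.077) at limma's unadjusted p of 0.0785. Of genes averaging 5 to 50 FPKM, the range in which ZFP423 lies, 13.1% were higher without overlap. COL1A1 and PDGFRB, a growth factor receptor, had log2 fold changes of 0.062 and 0.014. The summed level of all 12 markers was 15659, 16226 and 15478 FPKM with the agomir and 15373, 16429.8 and 16490.4 FPKM with the agomir NC, so the sums, made up mainly of COL1A1, VIM and DCN, overlapped. The part of these markers in the lower binding proteins was not tested. Of the 5 mature adipocyte markers tested, 4 had a higher and 1 a lower value with the agomir. The median log2 fold change was 0.14, but 0.078 without agomir NC replicate 1, where 4 were tested, and 0.038 for all 8 without a filter. CEBPA, PLIN1 and LPL had log2 fold changes of 0.29, 0.14 and 0.058, all with overlapping groups. Their unadjusted p in limma was 0.232, 0.327 and 0.567, and CEBPA, at a mean of 0.535 FPKM, lay near the filter of 0.5 FPKM. PPARG, the main transcription factor of adipogenesis, had a log2 fold change of 0.23. FABP4, a fatty acid binding protein and the only lower gene, had -0.49 with overlapping groups. PPARG and FABP4 both had an unadjusted p under 0.05 in limma, beside 6.63% of all genes tested that were higher and 4.31% lower. Their adjusted p in limma was 0.407 and 0.363, and the unadjusted p was under 0.05 in 12 and 14 of 16 alternative settings, for neither gene without agomir replicate 3. The sums of all 8 mature markers overlapped, at 11.5, 12.3 and 11.4 FPKM against 12.6, 11.02 and 11.1 FPKM.

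Around the members, genes that hold IGF or release it from binding proteins were listed for 9 of 10 symbols (ADAM28 was not analysed here), and 7 were tested. None of the 7 had an unadjusted p under 0.05 in limma, beside 10.9% of all genes tested, but 1 was higher without agomir NC replicate 2. The median of the 7 on the log2 scale was 0.022, against 0.063 without that library, -0.032 without agomir NC replicate 3 and -0.019 with a trend with gene span removed. CTSD, the lysosomal protease cathepsin D and the most abundant of them, had a mean of 166 FPKM. PAPPA, a protease that cleaves IGFBP4 and IGFBP5, measured 1.97, 1.93 and 1.90 FPKM after the agomir, against 2.09, 1.89 and 1.71 FPKM in the controls, with a log2 fold change of 0.026 (standard error 0.11). ADAM12, also of this list, had a mean of 48.0 FPKM and a log2 fold change of 0.12 (standard error 0.074), with overlapping groups. STC2, an inhibitor of PAPPA, differed by -0.031 on the log2 scale (standard error 0.10). IGFALS, the acid-labile subunit that joins IGFBP3 and IGF in a circulating complex, was between 0.704 and 2.10 FPKM. Its log2 fold change was -0.20 (standard error 0.25). IGFBP1, which lies next to IGFBP3 in the RefSeq annotation, was at most 0.324 FPKM.

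Proteins that share the IGF-binding domain without being classical binding proteins were listed for all 13 symbols, and 10 were tested. Of these, 2 were higher with the agomir at an unadjusted p under 0.05, beside 6.63% of all genes tested, and 0 were lower. The count was 3 higher without agomir replicate 1, and 2 higher and 1 lower without agomir NC replicate 2. ESM1, which encodes the secreted proteoglycan endocan, measured 20.4, 21.7 and 19.5 FPKM after the agomir, against 16.4, 15.97 and 18.3 FPKM in the controls, and its log2 fold change was 0.28 (standard error 0.067, limma adjusted p = 0.257). HTRA3, a secreted serine protease, measured 119, 131 and 125 FPKM after the agomir, against 115, 111 and 110.1 FPKM in the controls, and its log2 fold change was 0.15 (standard error 0.045, limma adjusted p = 0.31). Both kept an unadjusted p under 0.05 in 16 of 16 alternative settings, as IGFBP4, IGFBP5 and IGFBP7 did. HTRA1, the most abundant of the list, had a mean of 146 FPKM and a log2 fold change of 0.0038 (standard error 0.039). The matricellular genes CCN1 and CCN2, listed as CYR61 and CTGF, had log2 fold changes of -0.012 and 0.097 with overlapping groups.

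Downstream of the receptor, all 30 signaling genes were listed and 28 were tested. At an unadjusted p under 0.05, 5 were higher with the agomir and 0 lower, beside 6.63% and 4.31% of all genes tested. Of the 6877 genes averaging 5 to 50 FPKM, the range in which these 5 lie, 8.17% were higher and 3.65% lower. The median log2 fold change was 0.0093, but -0.0055 with median-ratio scaling and -0.017 with the span trend removed. RPS6KB1, a kinase activated by MTOR, had a log2 fold change of 0.22, PDPK1, the kinase that activates AKT, 0.20, TSC1, which restrains MTOR, 0.19, SOS2, a RAS activator, 0.19, and MTOR itself 0.15. None had an adjusted p under 0.05 in limma, where the lowest was 0.397 for TSC1. The count depended on the processing, and it was 2 higher and 1 lower when a trend with gene span was removed, 2 higher with quantile normalization, and between 1 and 3 higher whichever of the 6 libraries was left out. In 4 of these 6 omissions, those of agomir replicates 1 and 3 and of agomir NC replicates 2 and 3, 1 gene was lower, and without agomir NC replicate 2 the count was 1 higher and 1 lower. AKT1 was the most abundant, with a mean of 79.6 FPKM. The receptor substrates IRS1 and IRS2 had log2 fold changes of -0.026 (standard error 0.088) and -0.043 (standard error 0.11).

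For the mannose 6-phosphate route that IGF2R serves, all 10 genes were listed and tested. Of these, 3 were higher with the agomir at an unadjusted p under 0.05 and 0 lower, beside 6.63% and 4.31% of all genes tested. In the range of 5 to 50 FPKM, which holds these 3, 8.17% were higher and 3.65% lower. The median log2 fold change of the 10 was 0.060 (0.038 without agomir NC replicate 2). GGA3 and GGA1, adaptors that sort the receptor at the Golgi, had log2 fold changes of 0.19 (standard error 0.065) and 0.16 (standard error 0.061), and GNPTAB, a subunit of the enzyme that makes the mannose 6-phosphate tag, had 0.14 (standard error 0.054). Their adjusted p in limma lay between 0.361 and 0.402, and the count of 3 was 1 without agomir replicate 2, without agomir replicate 3 or without agomir NC replicate 1. VPS35, a retromer subunit that returns the receptor from endosomes, was the most abundant of them, with a mean of 53.7 FPKM.

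Regulators of IGF transcripts were listed for 12 of 13 symbols (H19 was not analysed here), and 0 of the 11 tested had an unadjusted p under 0.05 in limma, beside 10.9% of all genes tested, against 2 without agomir replicate 3 and 1 without agomir NC replicate 1. Their median log2 fold change was 0.014, but -0.011 with the span trend removed and -0.015 without agomir NC replicate 3. PLAGL1, an imprinted zinc finger factor, was the most abundant, with a mean of 27.2 FPKM. IGF2BP2, an mRNA-binding protein named for its binding of IGF2 mRNA, measured 8.62, 9.01 and 8.57 FPKM after the agomir, against 8.35, 8.07 and 8.36 FPKM in the controls, and its log2 fold change was 0.075 (standard error 0.063). IGF2BP1 was listed at 0 in 5 of the 6 libraries. GHR, the growth hormone receptor, lay between 3.13 and 4.48 FPKM, with a log2 fold change of 0.16 (standard error 0.13).

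**Figure D3:**
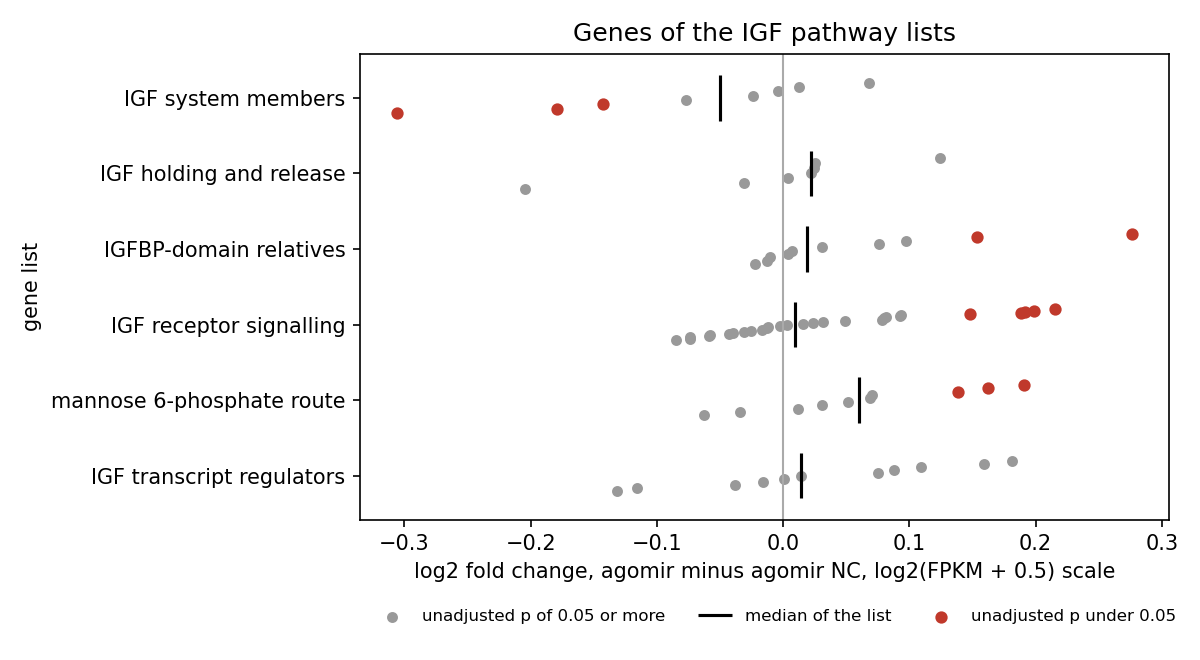
Log2 fold change of agomir minus agomir NC on the log2(FPKM + 0.5) scale for the genes tested in the 10 members and 5 further lists of the IGF pathway, with red points for an unadjusted p under 0.05 in limma and a black line for each list's median. The red points lie below 0 in the first list, where they are IGFBP5, IGFBP4 and IGFBP7, and above 0 in the lists that hold ESM1, TSC1 and GGA3.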

How the data were processed

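FPKM values of 6 libraries were used as deposited by the authors. Per the labels, the submitters' processing notes name fastp, HISAT2, StringTie and the build ARS-UCD1.2, without versions or roles. No counts were used, and among low values (below 0.1 FPKM) of 15 pairs of libraries a 0.002-wide step of the log2 ratio held at most 13 of at least 636 genes, so whole reads could not be recovered and no counting error is given. Genes averaging 0.5 FPKM or more were put on the log2(FPKM + 0.5) scale and fitted across all 12422 genes with limma 3.58.1 in R 4.3.3 (variance trend, two-sided, Benjamini-Hochberg adjustment over all genes, no replicate term). The fit was tested on simulated data. Single genes also had an exact permutation test of FPKM. The members and the gene lists were chosen with earlier results of these data known. Named genes were the 10 members, list genes with an unadjusted p under 0.05, each list's most abundant gene, and the 3 genes most correlated with the member of smallest p. Other list genes were named for their role after their values were seen. Gene span and order came from RefSeq (ARS-UCD2.0), with spans for 11471 genes. No sequences of the members were used here.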

Additional observations from a re-analysis of the deposited data

How the results depend on the processing

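The alternatives were median-ratio scaling, quantile normalization, a pseudocount of 0.1 or 1, no filter, a filter at 1 FPKM, removal of a trend with gene span from each library, no variance trend, array weights, the replicate block, and each library left out in turn. IGFBP4, IGFBP5 and IGFBP7 were lower with an unadjusted p under 0.05 in limma in all 16 settings and with an adjusted p under 0.05 in 0 of 16, so the count of 3 members was the same throughout. Their log2 fold changes ranged from -0.21 to -0.15, from -0.36 to -0.26 and from -0.18 to -0.13. The median of the 8 members, -0.050, ranged from -0.12, without agomir NC replicate 1, to -0.047, without agomir replicate 3, when 1 library was left out, and was -0.025 with quantile normalization and -0.014 over all 10 members without a filter. Of 128 values of single members, 114 kept their direction. IGF1R (0.013) turned to -0.0021 with median-ratio scaling, -0.00012 with quantile normalization, -0.031 with the span trend removed and -0.0019 with array weights, and ranged from -0.047 to 0.052 with 1 library left out. Under the same omissions IGF2R ranged from -0.0090 to 0.11, IGFBP2 from -0.23 to 0.16 and IGFBP3 from -0.037 to 0.013, and IGFBP3 was 0.026 with quantile normalization. The count of all genes past an adjusted p of 0.05, 1 here, was 0 in limma with the replicate block, 0 with no variance trend and 0 with no filter, where 1260, 1249 and 1604 genes had an unadjusted p under 0.05, and from 0 to 2 with 1 library left out (0 without agomir replicate 1 or agomir NC replicate 2, 2 without agomir NC replicate 3). Apart from the fewer libraries or other genes that enter, the cause was not tested. Median-ratio scaling gave 688 genes lower and 673 higher at an unadjusted p under 0.05, against 535 and 824. Quantile normalization gave 632 and 689, and removal of the span trend 660 and 654. Same-numbered libraries of the 2 groups deviated from their group means with correlations of -0.051, 0.053 and 0.039. Agomir replicate 2 correlated best with agomir NC replicate 1 (0.056). The largest correlation was that of agomir replicate 1 with agomir NC replicate 3 (0.072), so the numbers show no pairing of the samples. With 3 libraries in each group the replicate block leaves the log2 fold changes as they are (IGFBP5 -0.31) and moves only p, which for IGFBP5 in limma was 5.1e-05 unadjusted and 0.137 adjusted (0.0987 to 0.446 over all 16 settings). Depth is unknown, so no counting error is given for IGF1 and IGF2, which lie near 0.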
